A study of Mus musculus with 4 samples.

Results

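The genes described here are the 7 immunity-related GTPases Irgm1, Irgm2, Igtp, Iigp1, Ifi47, Tgtp1 and Tgtp2, taken by symbol from a table of 55414 mouse genes. Their RNA was measured in mouse peritoneal macrophages, the phagocytes of the abdominal cavity, treated for 24 h either with LUP (0.5 mg/ml) or with vehicle, which was complete medium. LUP is an abbreviation that the labels do not spell out. There were 2 libraries with LUP and 2 with vehicle, and no infection, genetic change or second agent is named for either group. The strain, age and sex of the mice are not given in the sources used here. Nothing says whether replicates are separate mice or cultures, so the p-values measure only the spread between these libraries, which may be technical.

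Immunity-related GTPases are large guanine nucleotide-binding proteins of mice that interferons induce in macrophages. They gather on the vacuoles in which intracellular parasites and bacteria such as Toxoplasma and Chlamydia live, and take part in breaking those vacuoles open. The family has a regulatory branch called GMS, whose proteins sit on the cell's own membranes and hold the others inactive there, and an effector branch called GKS, whose proteins load onto the vacuole. The letters are amino acids of the nucleotide-binding loop, where the GMS proteins carry a methionine in place of the usual lysine.

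The coding stretch of that loop sorts the 7 genes into the branches used below. It is printed from the GENCODE M21 transcripts of GRCm38, 5′ to 3′ on the coding strand, with the deciding codon in capitals.
Irgm1, Irgm2 and Igtp (GMS): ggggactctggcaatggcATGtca
Ifi47 (GKS): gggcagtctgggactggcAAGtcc
Tgtp1 and Tgtp2 (GKS): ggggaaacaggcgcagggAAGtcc
The 3 GMS genes had the same 24 bases, and the capitals are codon 89 in Irgm1 and Irgm2 and codon 97 in Igtp. In the GKS genes the lysine codon AAG is codon 87 in Ifi47, codon 69 in Tgtp1 and Tgtp2 and codon 82 in Iigp1. Over the whole coding sequence, Tgtp1 and Tgtp2 were identical at 1241 of 1245 bases (99.68%), whereas the GMS genes were 64.02% to 68.02% identical to each other.

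Promoters are shown because the members moved together and because their letters differ in the elements that interferon signalling is known to use. Promoter windows from RefSeq (GRCm38.p6) are described for 6 of the 7 members, and that of Iigp1 is not reported here. Each window runs from 250 bases before to 50 bases after the annotated start. The windows of 5 members are printed 5′ to 3′ on the strand of the gene. They lie at chr11:48871371-48871670 on the minus strand for Irgm1, chr11:58199306-58199605 on the plus strand for Igtp and chr11:58214727-58215026 on the plus strand for Irgm2. The window of Tgtp2 lies at chr11:49064163-49064462 on the minus strand and that of Ifi47 at chr11:49076337-49076636 on the plus strand. Capitals mark matches to GAAANNGAAA, the core of the interferon-stimulated response element (ISRE), and to TTCNNNGAA, the core of the gamma-activated site (GAS) of interferon gamma signalling, on either strand.
Irgm1: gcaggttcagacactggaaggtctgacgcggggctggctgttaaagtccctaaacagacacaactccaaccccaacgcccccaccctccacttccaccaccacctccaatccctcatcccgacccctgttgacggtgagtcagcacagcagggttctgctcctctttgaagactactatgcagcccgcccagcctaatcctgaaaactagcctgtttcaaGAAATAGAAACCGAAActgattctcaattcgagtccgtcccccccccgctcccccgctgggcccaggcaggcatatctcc
Igtp: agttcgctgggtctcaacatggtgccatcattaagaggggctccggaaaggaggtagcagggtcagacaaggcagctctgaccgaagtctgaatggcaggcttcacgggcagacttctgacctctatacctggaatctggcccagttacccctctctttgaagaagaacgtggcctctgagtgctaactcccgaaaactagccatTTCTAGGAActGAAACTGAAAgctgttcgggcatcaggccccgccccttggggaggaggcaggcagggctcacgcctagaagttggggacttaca
Irgm2: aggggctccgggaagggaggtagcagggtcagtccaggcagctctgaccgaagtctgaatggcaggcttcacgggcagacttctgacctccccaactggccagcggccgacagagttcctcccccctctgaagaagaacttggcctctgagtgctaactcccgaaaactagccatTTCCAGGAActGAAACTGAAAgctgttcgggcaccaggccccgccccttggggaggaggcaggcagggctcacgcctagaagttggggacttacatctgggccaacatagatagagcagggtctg
Tgtp2: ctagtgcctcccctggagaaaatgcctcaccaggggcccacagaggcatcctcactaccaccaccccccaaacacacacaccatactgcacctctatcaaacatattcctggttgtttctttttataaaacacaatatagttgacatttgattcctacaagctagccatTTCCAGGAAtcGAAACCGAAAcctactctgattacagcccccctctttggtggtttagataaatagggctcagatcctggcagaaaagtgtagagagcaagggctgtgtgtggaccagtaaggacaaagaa
Ifi47: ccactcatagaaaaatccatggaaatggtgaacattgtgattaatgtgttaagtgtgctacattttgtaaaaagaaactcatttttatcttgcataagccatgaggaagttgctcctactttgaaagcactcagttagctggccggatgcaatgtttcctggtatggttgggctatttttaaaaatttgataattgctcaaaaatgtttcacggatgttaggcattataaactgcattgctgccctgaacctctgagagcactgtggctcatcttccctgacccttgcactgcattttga
An ISRE-like match stood in 5 of the 6 windows and a GAS-like match in 4 of the 6. Among 32851 mouse promoter windows of the same length, 3.44% held the ISRE-like letters and 8.3% the GAS-like letters. The members' windows are not independent of each other. Those of Igtp and Irgm2 were 72.84% identical over their alignment, and those of Tgtp1 and Tgtp2 66.77%. The other pairs were 39.34% to 50.3% identical. Igtp, Irgm2, Tgtp1 and Tgtp2 each held 1 GAS-like match followed, 2 bases later, by 1 ISRE-like match. This joint stretch read TTCTAGGAACTGAAACTGAAA in Igtp, 45 to 25 bases before the start, and TTCCAGGAACTGAAACTGAAA in Irgm2, 75 to 55 bases before it. It read TTCCAGGAATCGAAACTGAAA in Tgtp1, 88 to 68 bases before the start (window chr11:48992197-48992496, minus strand), and TTCCAGGAATCGAAACCGAAA in Tgtp2, 81 to 61 bases before it. The joint pattern, which was written down after these promoters had been read, occurred in 5 of the 32851 windows (0.0152%), those 4 members and the related gene Gm12185. Irgm1 had 2 ISRE-like matches that overlap, GAAATAGAAA and GAAACCGAAA, and no GAS-like match, and the Ifi47 window had neither. A match describes letters and is no evidence of binding.

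**Figure D1:**
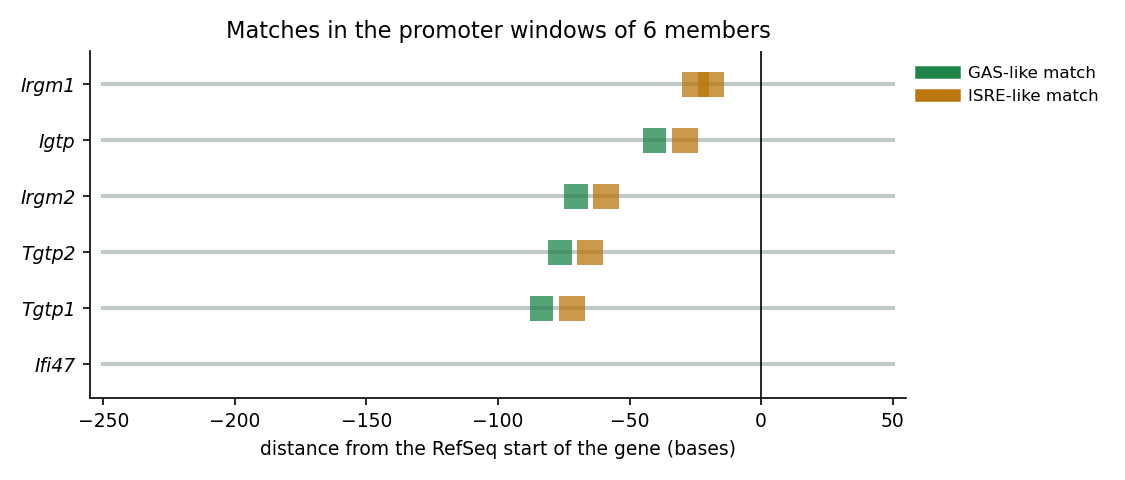
Positions of the GAS-like and ISRE-like matches in the RefSeq promoter windows of 6 members, in bases from the annotated start (vertical line, negative before it). Each row is a gene, grey lines are the windows, green boxes are GAS-like and ochre boxes ISRE-like matches. Igtp, Irgm2, Tgtp2 and Tgtp1 have the pair of matches side by side, Irgm1 has overlapping ISRE-like matches alone, and Ifi47 has none.

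The libraries held 23617618 and 22460913 counts with LUP, against 19949818 and 23172691 with vehicle, and 13355 genes passed the filter on low counts. Replicates differed beyond counting noise (chi-square per degree of freedom 3.60 between the LUP libraries and 2.72 between the vehicle libraries). Each library was counted as a sample, though this spread does not show that the replicates are separate mice or cultures. Macrophage markers were abundant in both groups, with 586 TPM with LUP and 119 TPM with vehicle for Adgre1, which encodes F4/80, and 4056 TPM with LUP and 4209 TPM with vehicle for the lysosomal marker Cd68. TPM, a share of all transcripts, corrects for gene length and sequencing depth. Of 10 macrophage markers tested, 6 were higher with LUP, 3 were lower and 1 was not called.

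All 7 immunity-related GTPases passed the filter and all 7 were higher with LUP, whereas 27.1% of the genes tested were called higher and 50.8% in either direction. Each was called at a Benjamini-Hochberg adjusted p under 0.05 in edgeR's quasi-likelihood test over all 13355 genes. The LUP and vehicle libraries of all 7 did not overlap in TPM, which held for 27.6% of the genes tested in the higher direction and 69.9% in either direction. All 7 were also at least 4-fold higher, as were 3.2% of the genes tested. Their median log2 fold change was 3.30, against -0.00 for all genes tested. In bulk RNA, a change in the number of cells that express a gene and a change in the RNA per cell cannot be told apart.

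**Figure D2:**
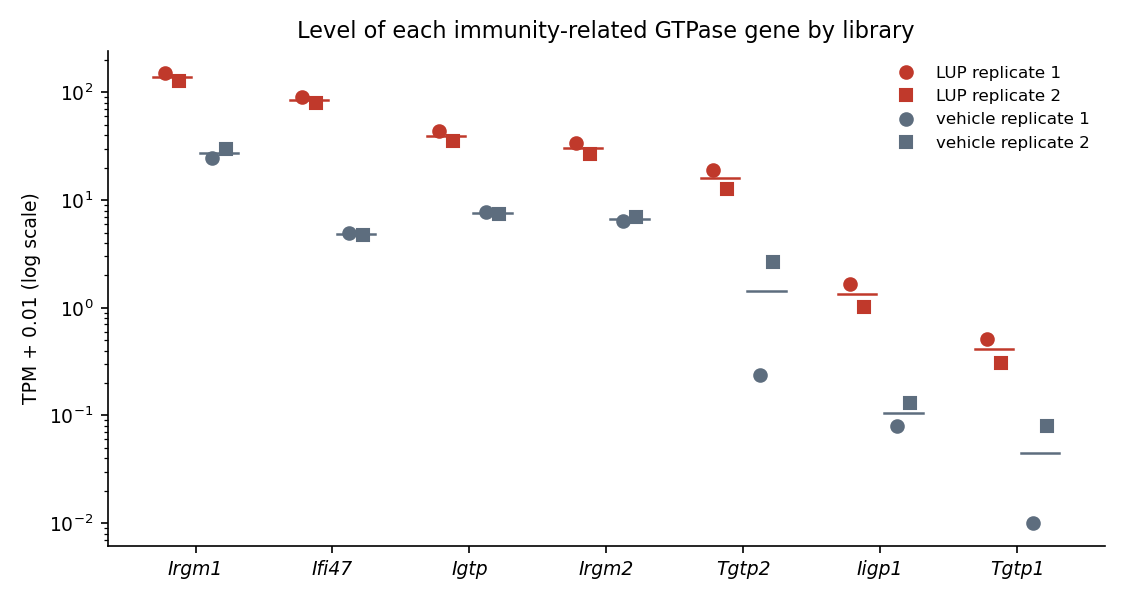
TPM of each of the 7 genes in each library, on a log axis with 0.01 TPM added so that a value of 0 can be drawn. Red symbols are LUP, grey symbols vehicle, circles replicate 1, squares replicate 2 and short lines group means of the 2 libraries. For every gene both LUP libraries lie above both vehicle libraries.

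Among the GMS regulators, Irgm1 (ENSMUSG00000046879), which mice need for resistance to several intracellular bacteria, was the most abundant member in every library. It had 151 and 128 TPM with LUP, against 24.7 and 29.9 TPM with vehicle. The groups were far apart, and the LUP libraries differed from each other by more TPM than the vehicle libraries did. The mean was 139 ± 16.2 TPM with LUP and 27.3 ± 3.67 TPM with vehicle (SD, n = 2 each), a 5.43-fold rise (log2 fold change 2.44, SE 0.07, edgeR adjusted p = 9.19e-16). Its counts were whole numbers in all 4 libraries and no 75-base stretch of its transcripts occurs in another gene's transcripts, so its reads were not shared out between copies.

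Igtp (ENSMUSG00000078853), also called Irgm3 and known from mice that lack it for its part in resistance to Toxoplasma, had 43.6 and 35.3 TPM with LUP and 7.69 and 7.37 TPM with vehicle. It rose 5.65-fold (log2 2.50, SE 0.10, edgeR adjusted p = 6.00e-14). Irgm2 (ENSMUSG00000069874), the remaining regulator, had 33.8 and 27.1 TPM with LUP and 6.34 and 6.94 TPM with vehicle. It rose 4.90-fold (log2 2.29, SE 0.09, edgeR adjusted p = 5.81e-14). Both genes were thus close to each other in level in each library, with Igtp at 1.29 and 1.30 times Irgm2 with LUP and 1.21 and 1.06 times with vehicle. They overlap on the same strand in the annotation, and 7.8% of the 75-base stretches of Igtp also occur in another gene, all of them in Irgm2, so a small part of the reads could belong to either.

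Among the GKS effectors, Ifi47 (ENSMUSG00000078920) was by far the most abundant. It had 89.8 and 80.2 TPM with LUP, against 4.92 and 4.72 TPM with vehicle, so that libraries of a group differed little beside the gap between groups. The rise was 18.7-fold (log2 4.23, SE 0.09, edgeR adjusted p = 5.23e-18). With LUP only Irgm1 stood above it in both libraries, whereas with vehicle Igtp and Irgm2 stood above it too. Ifi47 overlaps Olfr56 on the same strand, and 2.82% of its 75-base stretches are shared with another gene.

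Tgtp2 (ENSMUSG00000078921), an effector known to coat the Toxoplasma vacuole, had 19.1 and 12.6 TPM with LUP and 0.23 and 2.64 TPM with vehicle. Its expected counts were 594 and 408 with LUP and 8 and 24.1 with vehicle, and the rise was 29.7-fold (log2 4.89, SE 0.23, edgeR adjusted p = 1.76e-12). Without vehicle replicate 2 its log2 fold change was 5.76, and without vehicle replicate 1 it was 4.42. The TPM of vehicle replicate 2 was out of step with its count, at 2.57 TPM per depth-corrected count (CPM) against 0.577 in vehicle replicate 1 and 0.757 and 0.681 with LUP, so the counts are the firmer measure here.

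Tgtp1 (ENSMUSG00000078922), the near-identical neighbour of Tgtp2, had 0.50 and 0.30 TPM with LUP, and was at 0 and 0.07 TPM with vehicle. That is 33 rounded reads with LUP against 3 with vehicle, a depth-corrected ratio of 10.5 with an exact 95% interval of 3.30 to 53.7 that covers counting error only. The edgeR log2 fold change was 3.30 (SE 0.82, adjusted p = 0.00247). It was 2.45 without vehicle replicate 1 and 6.99 without vehicle replicate 2, where no vehicle read remained and the fitted value depends on the prior count. Of the 75-base stretches of Tgtp1, 77.2% occur in other genes, 74.6% in Tgtp2, and 81.4% of those of Tgtp2 occur in Tgtp1. The split between the copies is therefore uncertain. Summed before the test, the pair had 615 and 421 counts with LUP, against 8 and 27 with vehicle, a 28.1-fold rise (log2 4.81, SE 0.24, edgeR adjusted p = 2.99e-12). The log2 value of the sum was 5.80 without vehicle replicate 2 and 4.30 without vehicle replicate 1.

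Iigp1 (ENSMUSG00000054072), the effector whose protein is the best studied of the family in Toxoplasma infection, was scarce. It had 1.67 and 1.00 TPM with LUP and 0.07 and 0.12 TPM with vehicle, from 69 and 44 whole counts with LUP, against 2 and 5 with vehicle. It rose 15.0-fold (log2 3.90, SE 0.50, edgeR adjusted p = 2.42e-06). The log2 value was 4.55 without vehicle replicate 2 and 3.51 without vehicle replicate 1. Unlike the other 6 genes, which lie on chromosome 11, it lies on chromosome 18. None of its 75-base stretches occurs in another gene and no annotated gene overlaps it.

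By level the order with LUP was Irgm1, Ifi47, Igtp, Irgm2, Tgtp2, Iigp1 and Tgtp1, and the ranges of neighbours did not overlap, although the means of Igtp and Irgm2 lay within the sum of their SDs (39.4 ± 5.86 and 30.45 ± 4.79 TPM, n = 2). With vehicle the order was Irgm1, Igtp, Irgm2, Ifi47, Tgtp2, Iigp1 and Tgtp1, where Iigp1 and Tgtp1 met at 0.07 TPM. LUP replicate 1 stood above LUP replicate 2 in all 7 members, by 1.12 to 1.67 times in TPM, and so did 61.6% of the genes tested. On depth-corrected counts the same held for 7 of 7 members, by 1.08 to 1.6 times, and for 49.4% of the genes tested. The cause was not tested.

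The summed level of the 7 genes was 339 and 284 TPM with LUP and 43.9 and 51.7 TPM with vehicle. The mean was 312 ± 38.9 TPM with LUP and 47.8 ± 5.52 TPM with vehicle (SD, n = 2 each), 6.51-fold apart. With 2 libraries against 2, the exact two-sided permutation test cannot give a p below 0.33, which is the value it gave for the sum and for the branch sums and ratio that follow. The summed GMS level was 228 and 190 TPM with LUP and 38.7 and 44.2 TPM with vehicle, a 5.03-fold difference. The summed GKS level was 111 and 94.1 TPM with LUP and 5.22 and 7.55 TPM with vehicle, a 16.3-fold difference. The 7.55 TPM of vehicle replicate 2 includes the 2.64 TPM of Tgtp2 that was out of step with its count.

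The make-up of the family was compared as the ratio of the branches. GMS transcripts were 2.05 and 2.02 times as abundant as GKS transcripts with LUP, and 7.42 and 5.85 times with vehicle. The groups did not overlap in this ratio, which was 2.04 ± 0.02 with LUP and 6.64 ± 1.11 with vehicle (SD, n = 2 each, log2 difference -1.69, exact permutation p = 0.33). All 3 GMS genes rose 4.9-fold to 5.65-fold and all 4 GKS genes rose 9.83-fold to 29.7-fold. The gap did not hold throughout. Tgtp1, with few reads, has an interval of 3.30- to 53.7-fold that spans the GMS folds, and without vehicle replicate 1 its log2 fold change of 2.45 lay below that of Igtp, 2.53. With limma on log2(TPM + 1), Iigp1 at 1.08 lay below all 3 GMS genes, at 2.03 to 2.31. Ifi47 took 26.5% and 28.2% of the family's TPM with LUP and 11.2% and 9.12% with vehicle. Irgm1 took 44.4% and 44.9% with LUP and 56.2% and 57.75% with vehicle. Within the GMS branch the proportions were nearly steady, with Irgm1 at 3.46 and 3.62 times Igtp with LUP and 3.21 and 4.05 times with vehicle, where the groups overlapped (exact permutation p = 1.0). Without the uncertain Tgtp pair the log2 difference in the branch ratio was -1.80, and in depth-corrected counts it was -1.91. The ratio of 5.85 in vehicle replicate 2 rests in part on the Tgtp2 TPM that was out of step with its count. In counts per kilobase the ratio was 2.15 and 2.07 with LUP and 7.28 and 8.08 with vehicle.

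**Figure D3:**
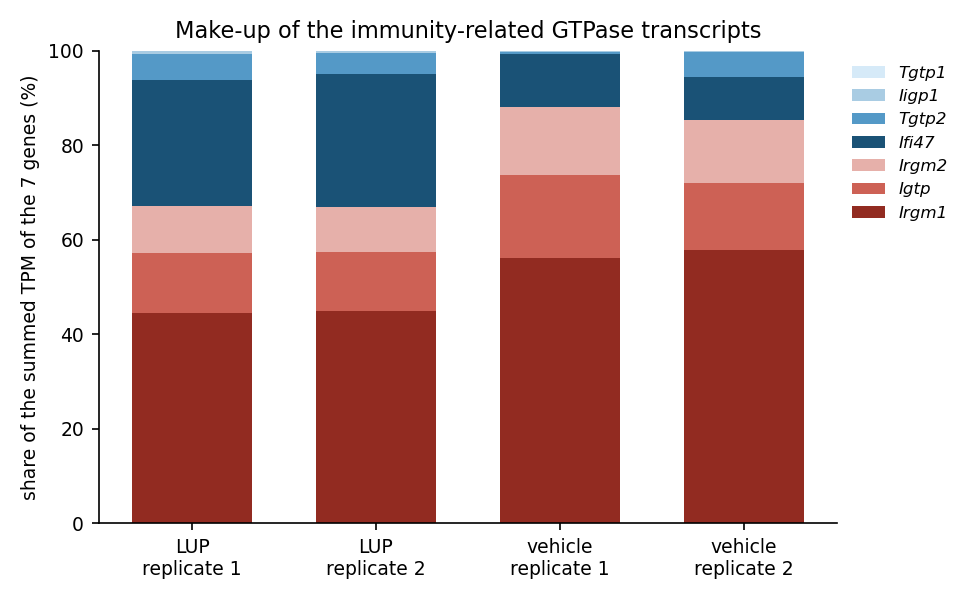
Share of each gene in the summed TPM of the 7 members, in percent, for each library. Each bar is a library, red shades are GMS genes and blue shades GKS genes. Ifi47 takes 26.5% and 28.2% in the LUP libraries and 11.2% and 9.12% in the vehicle libraries.

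In the authors' deposited table, which gives vehicle over LUP, the 7 members had log2 fold changes of -4.94 for Tgtp2 to -2.30 for Irgm2. The highest adjusted p there was 0.0349, for Tgtp1, and the lowest was 1.10e-192, for Ifi47.

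The family's other genes did not all move with the 7 members. Of 10 further immunity-related GTPase genes in the table, 7 were tested. Of these, 4 were called higher, 1 was called lower and 2 were not called, with a median log2 fold change of 0.66. Among all genes tested, 27.1% were called higher and 23.7% lower. Gm12250, which encodes the vacuole-targeted GTPase Irgb10, had 31.0 and 28.5 TPM with LUP and 2.81 and 1.70 TPM with vehicle. It rose by 4.14 on the log2 scale (SE 0.11, edgeR adjusted p = 1.18e-16), which lies within the range of the GKS members.

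Gm5431, whose coding sequence holds the lysine form of the loop at 2 places, had 19.6 and 16.99 TPM with LUP and 4.67 and 4.41 TPM with vehicle (log2 1.98, SE 0.09, edgeR adjusted p = 7.57e-13). Gm4951 had 15 and 20 counts with LUP, against 1 and 0 with vehicle, a ratio of 33.5 with an exact 95% interval of 5.63 to 1361 (edgeR adjusted p = 0.000288). Its fitted log2 fold change of 4.76 was 7.16 without vehicle replicate 1, where no vehicle read remained, and 3.80 without vehicle replicate 2.

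Other relatives had small or uncalled differences. The neighbours 9930111J21Rik1 and 9930111J21Rik2 share 76.0% and 52.3% of their 75-base stretches with other genes, so their split is uncertain. 9930111J21Rik2 had 22.9 and 19.3 TPM with LUP and 18.5 and 21.1 TPM with vehicle. The groups overlapped in TPM, and its call as higher (log2 0.20, edgeR adjusted p = 0.0155) was lost under 8 of 13 alternatives. 9930111J21Rik1 had 9.16 and 7.24 TPM with LUP and 7.21 and 8.00 TPM with vehicle (log2 0.08, edgeR adjusted p = 0.465), and its sign turned under 2 other scalings. Gm12185, which has the joint promoter stretch of the members, had 0.31 and 0.98 TPM with LUP and 0.10 and 0.23 TPM with vehicle. Its TPM in LUP replicate 2 was out of step with its count, and in counts per depth the groups overlapped, its counts being 25.4 and 15.96 with LUP, against 6.55 and 17.9 with vehicle. It was not called (log2 0.66, SE 0.49, edgeR adjusted p = 0.288).

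Irgq, a divergent relative thought to lack GTPase function, fell to 6.18 and 5.99 TPM with LUP, against 8.26 and 8.63 TPM with vehicle (log2 -0.37, SE 0.07, edgeR adjusted p = 0.000158). Called lower were 23.7% of the genes tested. Irgc1 and F830016B08Rik had at most 4 counts in any library and were not tested, and the pseudogene Gm12187 was at 0 in all 4.

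**Figure D4:**
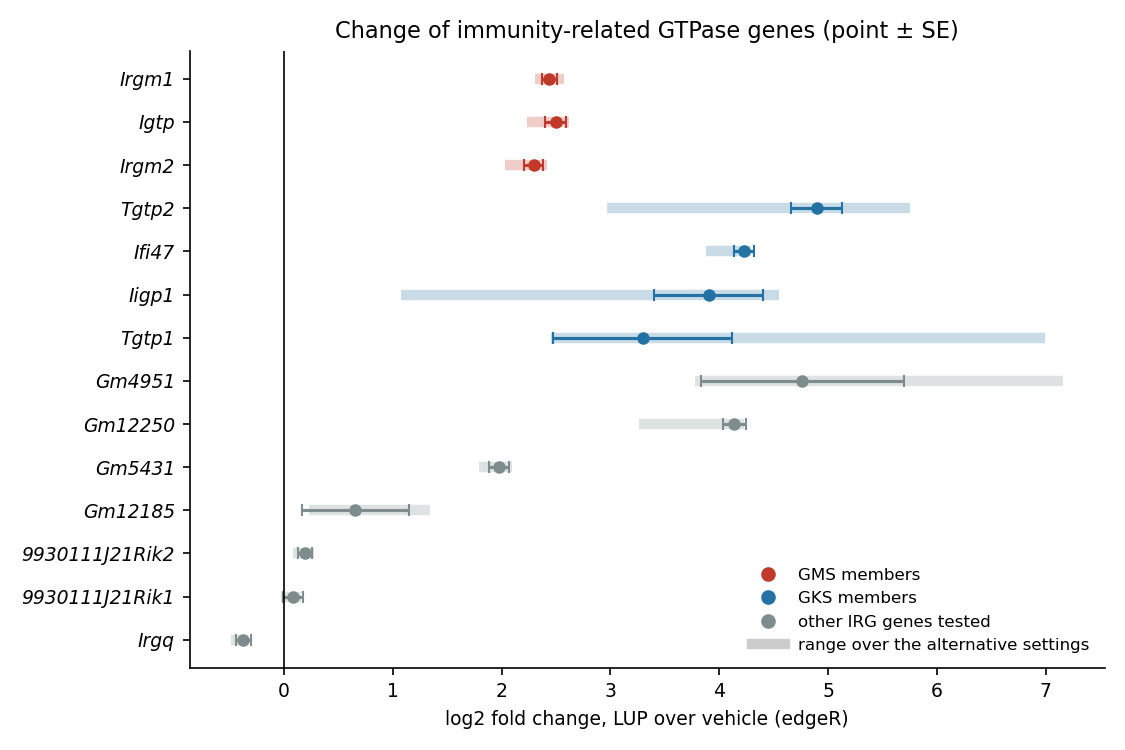
Log2 fold change, LUP over vehicle, of the 7 members and the 7 other immunity-related GTPase genes tested (edgeR). Points are the fitted values with bars of 1 SE, and the pale bands run over the alternative settings tried. The GMS members sit between 2.29 and 2.50 and the GKS members between 3.30 and 4.89, but the bands of Iigp1 and Tgtp1 reach down to or below the GMS values, while 4 of the other genes sit below 1.

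Guanylate-binding proteins (GBPs), which load onto the same vacuoles, and other large interferon-induced GTPases rose with the members. Of 14 such genes, 13 were tested and 12 were called higher, as were 27.1% of all genes tested. The median log2 fold change of the list was 4.33. Gbp11 was at 0 with vehicle and at least 4.79-fold higher with LUP against a floor of 3 counts per library, and with Gbp11 at that bound the median was 3.96. Gbp8 was not called (log2 1.23, edgeR adjusted p = 0.0698). Gbp2, which mice need to restrict Toxoplasma, had 188 and 161 TPM with LUP and 6.29 and 6.09 TPM with vehicle, a 30.2-fold rise (edgeR adjusted p = 3.12e-20).

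Gbp3 averaged 55.5 ± 10.2 TPM with LUP and 4.96 ± 0.21 TPM with vehicle (SD, n = 2 each, 15.6-fold, edgeR adjusted p = 6.30e-16). Gvin1, a very large GTPase, averaged 37.0 ± 3.71 TPM with LUP and 6.76 ± 1.16 TPM with vehicle (5.84-fold, edgeR adjusted p = 5.17e-16). Gbp6 had 38.9 and 28.6 TPM with LUP and 0.42 and 0.06 TPM with vehicle, a 157-fold rise (log2 7.30), with a log2 value of 8.87 without vehicle replicate 1 and 6.46 without vehicle replicate 2. Among the genes chosen after their values were seen, Mx1, an antiviral GTPase, averaged 29.6 TPM with LUP and 0.76 TPM with vehicle (32.1-fold, edgeR adjusted p = 2.35e-17).

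Genes of interferon reception, signalling and feedback inhibition were mostly higher. Of 16 genes tested, 13 were called higher, 2 lower and 1, the kinase gene Tyk2, was not called, with a median log2 fold change of 1.19. Of all genes tested, 27.1% were called higher and 23.7% lower. The largest rises of the list were those of the feedback inhibitors Usp18, Socs1 and Socs3 (log2 4.32, 3.54 and 2.83). Ifnar2, a chain of the type I interferon receptor, averaged 246 ± 5.31 TPM with LUP and 112 ± 0.54 TPM with vehicle (SD, n = 2 each, log2 0.98, edgeR adjusted p = 2.28e-13). The kinase gene Jak1 averaged 103 TPM with LUP and 96.3 TPM with vehicle (log2 0.20, edgeR adjusted p = 0.000273), a call that was lost under 3 alternatives. Irf8, a transcription factor of the macrophage lineage, fell to 89.3 ± 2.62 TPM with LUP, against 115 ± 1.64 TPM with vehicle (SD, n = 2 each, log2 -0.24, edgeR adjusted p = 0.000153).

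The following genes of this list were chosen after their values were seen. The chains of the interferon gamma receptor moved apart. Ifngr1 fell to 43.6 TPM with LUP, against 65.2 TPM with vehicle (log2 -0.53, edgeR adjusted p = 1.15e-07), while Ifngr2 averaged 99.4 TPM with LUP and 92.5 TPM with vehicle (log2 0.23, edgeR adjusted p = 6.73e-05, lost under 2 alternatives). Irf1, an activator of immunity-related GTPase genes, averaged 133 TPM with LUP and 25.9 TPM with vehicle (log2 2.29, edgeR adjusted p = 2.82e-17), a rise close to that of the GMS members. Stat2 and Irf9, subunits of the complex that binds the ISRE, rose by 2.45 and 1.67 on the log2 scale (edgeR adjusted p = 1.07e-16 and 7.23e-14). Socs1, a feedback inhibitor of the pathway, averaged 6.04 TPM with LUP and 0.565 TPM with vehicle (log2 3.54, edgeR adjusted p = 1.21e-10).

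Over the genome, letters and change were set side by side as a description. Of 9962 tested genes with a promoter window, 28.3% were called higher, with a median log2 fold change of 0.01. Of the 403 with an ISRE-like match 164 (40.7%) were called higher, with a median of 0.13, and of the 810 with a GAS-like match 250 (30.9%), with a median of 0.01. Within the family, Igtp, Irgm2, Tgtp1, Tgtp2 and Gm12250 held both kinds of match and were called higher, as was Irgm1 with the ISRE-like kind alone. Ifi47 rose 18.7-fold with neither match in its window, and Gm5431 and 9930111J21Rik2 were also called higher with neither. Irgq was called lower with neither. Iigp1 and Gm4951 were also called higher, but their windows are not reported here. Gm12185, with 41 reads with LUP and 25 with vehicle, was not called with both, nor was 9930111J21Rik1 with an ISRE-like match. Whether the letters bear on the change was not tested.

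Interferon transcripts themselves were nearly absent. None of 21 interferon genes passed the filter, and 18 of them were at 0 in all 4 libraries, among them Ifnb1, the gene of interferon beta. Ifng, the gene of interferon gamma, had 10 and 10 counts with LUP, against 0 and 0 with vehicle, at least 3.17-fold higher against the floor of 3 counts per library. It was called only when no filter was used (edgeR adjusted p = 0.001). The count of Ifnz was 0 and 1.88 with LUP and 3.01 and 3.84 with vehicle.

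Markers of T and NK cells, which are known sources of interferon gamma, had few reads and were not tested, since none of 12 passed the filter. All 12 together had 43 and 32 counts with LUP, against 7 and 12 with vehicle. None was at 0 in all 4 libraries. All but Cd4, which had 6 reads with LUP and 6 with vehicle, had more reads with LUP. The largest differences were in Cd3g, with 21 with LUP and 3 with vehicle, and Klrb1c, with 12 with LUP and 3 with vehicle. Cd3e had 7 with LUP and 1 with vehicle, and Trac 5 with LUP and 0 with vehicle. The highest single count of the list was 13 with LUP and 4 with vehicle. Of 8 neutrophil markers, 2 were tested and both were higher. S100a8 had 333 and 302 counts with LUP, against 86 and 111 with vehicle, and Camp 22 and 18 counts with LUP, against 0 and 0 with vehicle, while Ly6g, Mpo and S100a9 were at 0 in all 4. The summed TPM of the neutrophil markers was 92.5 and 89.7 with LUP and 29.2 and 32.3 with vehicle. Nearly all of it was S100a8, at 89.6 and 86.9 TPM with LUP and 29.2 and 32.3 TPM with vehicle, so the sum describes that gene. The 5 B cell markers, none tested, had 24 and 18 counts with LUP, against 26 and 29 with vehicle, and the 5 dendritic cell markers 43 and 32 counts with LUP, against 28 and 41 with vehicle. Mast cell markers had 70 and 67 counts with LUP, against 46 and 37 with vehicle, with 1 of 3 tested called higher. That gene was Kit, with 34 and 45 counts with LUP, against 6 and 11 with vehicle, and the rise of the sum rests mainly on it. Tpsb2 and Cpa3 were not called and had 34 and 18 reads with LUP, against 42 and 23 with vehicle. Of 7 mesothelial and fibroblast markers, 2 were called higher, Col1a1 and Dcn (log2 0.46 and 0.27), and 2 lower, Krt19 and Upk3b. Krt19 had 3 reads with LUP and 23 with vehicle, and Upk3b 18 with LUP and 81 with vehicle. The summed level of the 7 was 129 and 99.96 TPM with LUP and 93.7 and 106 TPM with vehicle. Nearly all of it was collagen transcripts and Dcn, so the sum does not describe the mesothelial markers. Of 5 tested markers of the resident large peritoneal macrophage 1 was called higher, 2 lower and 2 were not called. The higher one was Timd4, a receptor for dying cells, with 28 and 20 counts with LUP, against 0 and 1 with vehicle, a ratio of 46.0 with an exact 95% interval of 7.865 to 1853 (edgeR adjusted p = 4.45e-05). The lower ones were the transcription factor gene Gata6, at 1.22 TPM with LUP, against 3.13 TPM with vehicle (edgeR adjusted p = 0.000429), and Cd9, at 833 TPM with LUP, against 1395 TPM with vehicle (edgeR adjusted p = 2.07e-11). The part of these cells in the rise of the immunity-related GTPases was not tested.

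Genes of autophagy were counted next, both of the conjugation machinery, which is known to guide the GTPases to the vacuole, and of autophagy initiation (Ulk1, Becn1, Atg14 and Atg9a). Of 16 genes tested, 4 were called higher, 9 lower and 3 were not called, with a median log2 fold change of -0.23 and a range of -0.70 to 0.56. The 4 higher are near the share of all genes tested that were called higher, 27.1%, while 23.7% of all were called lower. Gabarapl1, an Atg8-family protein, fell to 143 ± 2.97 TPM with LUP, against 211 ± 0.21 TPM with vehicle (SD, n = 2 each, log2 -0.48, edgeR adjusted p = 6.61e-09). Map1lc3b, which encodes LC3B, fell to 103 ± 0.25 TPM with LUP, against 133 ± 3.45 TPM with vehicle (log2 -0.34, edgeR adjusted p = 2.84e-06). Atg3, the enzyme that passes Atg8 proteins to lipid, averaged 74.5 TPM with LUP and 67.5 TPM with vehicle (log2 0.25, edgeR adjusted p = 0.000245), and its call was lost under 2 alternatives. Becn1, a subunit of the lipid kinase complex of autophagy, averaged 85.5 TPM with LUP and 97.3 TPM with vehicle (log2 -0.16, edgeR adjusted p = 0.00859). Without vehicle replicate 1 its edgeR adjusted p was 0.118, and over all alternatives the adjusted p ran between 7.04e-05 and 0.287 (edgeR, DESeq2 and limma). Atg5, a part of the conjugation complex that was chosen after its value was seen, rose by 0.50 on the log2 scale (edgeR adjusted p = 3.91e-07).

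Ubiquitin, adaptor, galectin and GDP-dissociation inhibitor genes, which act on damaged vacuoles or bind GTPases, were mixed. Of 14 genes, 13 were tested, with 6 called higher, 4 lower and 3 not called, and a median log2 fold change of 0.06. Of all genes tested, 27.1% were called higher and 23.7% lower. Sqstm1, which encodes the adaptor p62, had 1219 and 1168 TPM with LUP and 669.8 and 670.1 TPM with vehicle, a 1.90-fold rise (edgeR adjusted p = 4.24e-14). The ubiquitin gene Ubb averaged 2437 TPM with LUP and 1782 TPM with vehicle (log2 0.53, edgeR adjusted p = 2.21e-10). Lgals3, a galectin that marks broken vacuoles, fell to 5955 TPM with LUP, against 8340 TPM with vehicle (log2 -0.38, edgeR adjusted p = 8.28e-08). Arhgdia, a GDP-dissociation inhibitor, averaged 955 TPM with LUP and 944 TPM with vehicle (log2 0.12, edgeR adjusted p = 0.00979), a call lost without vehicle replicate 2 and under 5 other alternatives, in 1 of which the sign turned. The ubiquitin ligase Trim21, chosen after its value was seen, rose by 1.24 on the log2 scale (edgeR adjusted p = 4.74e-10).

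**Figure D5:**
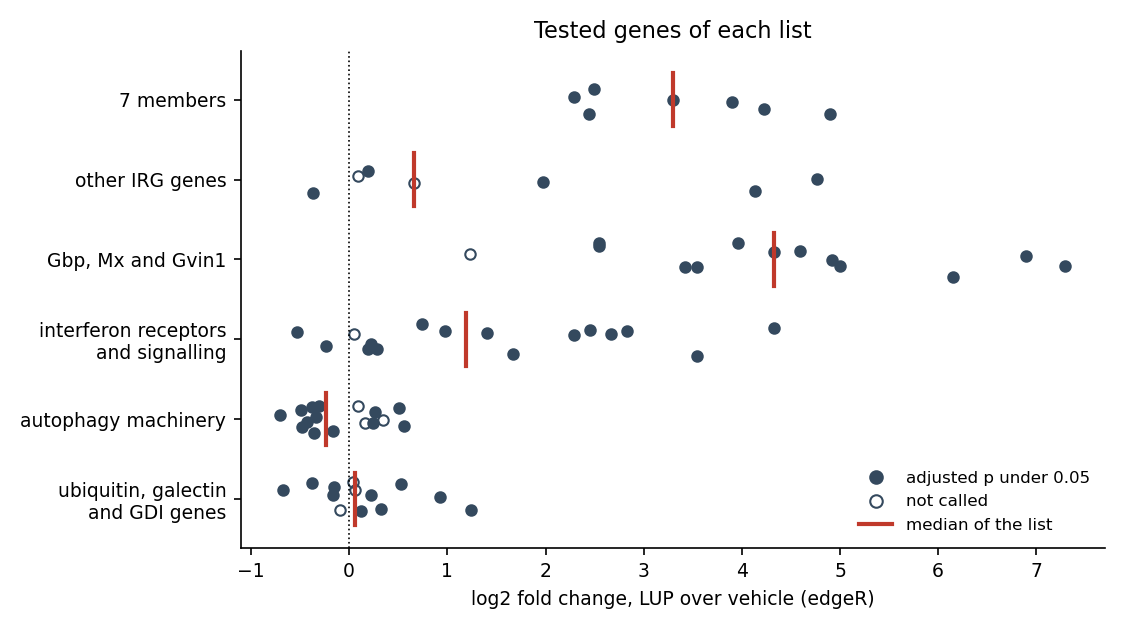
Log2 fold change, LUP over vehicle, of each tested gene of the 7 members and of the lists named at the left (edgeR). Filled points were called at an adjusted p under 0.05, open points were not, and red bars are medians. The medians of the members and of the Gbp, Mx and Gvin1 list are 3.30 and 4.33, and those of the autophagy and ubiquitin lists lie near 0.

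The genes most like the members were then sought among 7393 tested genes with named symbols and at least 10 TPM in the higher group. Likeness was the root mean square difference between a gene's log2(TPM + 1) in the 4 libraries, less its own mean, and the average of the 7 members treated likewise, a measure that the fold change dominates with only 4 libraries. Among the closest were Phf11a (difference 0.05), Msr1 and Herc6 (each 0.07), Trim30a (0.07), AA467197 (0.08), Ifi203 (0.09) and Serpinb2 (0.09). Herc6 averaged 32.2 TPM with LUP and 6.875 TPM with vehicle, Msr1, the class A scavenger receptor, 227 TPM with LUP and 52.2 TPM with vehicle, and Trim30a 81.9 TPM with LUP and 19.3 TPM with vehicle. The members themselves lay between 0.08 for Irgm2 and 0.88 for Ifi47 from their own average, so the average describes the GMS branch better than the GKS branch.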

How the data were processed

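The labels' protocols describe TRIzol extraction with DNase treatment and paired-end TruSeq sequencing. They do not say whether strand was kept, so reads where genes overlap on opposite strands may not be told apart. Tools named in the submitters' processing notes are fastp, HISAT2, RSEM and StringTie; the build was not given. The expected counts and TPM values per library, the fold (a ratio), its log2, the p-value and the adjusted p-value were made and deposited by the authors in 1 table of 55414 genes. Expected counts are not scaled between libraries and can split a read between similar genes.

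Rounded expected counts were fitted with edgeR 4.0.16 (R 4.3.3), using its quasi-likelihood test, TMM scaling, filterByExpr and no covariate beside treatment. P-values were adjusted by Benjamini-Hochberg over 13355 genes, with a threshold of 0.05. Fold changes are LUP over vehicle, and the SE is the log2 fold change divided by the root of F. Single values per library were compared by exact permutation tests. Intervals (95%, exact) and the floor of 3 counts cover counting error only. The test was checked on simulated counts in which all genes had the same dispersion and few genes changed. In the data 50.8% of genes were called, so that check does not give the error rate here. Members, gene lists and their naming rule were chosen with earlier results of these data known. The rule names all members, every other immunity-related GTPase gene, and from each pathway list up to 4 called genes with the highest mean TPM. Some genes that it picks are not reported here. Marker genes are given as examples. Promoters (RefSeq, GRCm38.p6) and transcripts (GENCODE M21, GRCm38) give sequences only. Alternatives used DESeq2 1.42.0, limma 3.58.1, other scalings, filters, pseudocounts and samples.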

Additional observations from a re-analysis of the deposited data

How the results depend on the processing

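All 7 members were called higher under every alternative that tested them all. With a mean of at least 5 TPM required, Iigp1 and Tgtp1 were not tested and the other 5 were called. In limma on TPM, Tgtp1 was not tested and the other 6 were called. With log2(TPM + 1) the log2 fold change of Iigp1 was 1.08, since a pseudocount understates low genes. Leaving out each library in turn, where the lone remaining library of a group is assumed to vary like the other group, left 7 members called, 5607 to 6390 genes called and 3019 to 3426 called higher. The summed TPM of the 7 members then differed by 2.58 to 2.83 on the log2 scale, the GMS to GKS ratio by -1.87 to -1.52 and the Tgtp1 and Tgtp2 sum by 4.30 to 5.80. The ratio in counts per kilobase, tried after the data were seen, as was leaving libraries out of these sums, differed by -1.86.

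Limma called 4189 genes with log2(TPM + 1) and 4284 with log2(TPM + 0.1), against 6785 with edgeR, and 1848 and 1876 higher, against 3621. In both it called 2 of the other immunity-related GTPases higher, against 4, and 1 autophagy gene, against 4. With at least 5 TPM, 2 other immunity-related GTPases were called higher. Without a filter 1 interferon gene, Ifng, was called, against 0. Upper-quartile and quantile scaling gave 9930111J21Rik1 log2 fold changes of -0.0275 and -0.00097, and quantile scaling gave Arhgdia -0.0032. Upper-quartile scaling moved the median of all genes by -0.11, and calls were then 37.8% higher, against 53.4%; the share was 41.3% with quantile scaling and 44.1% and 43.9% with limma on TPM. Libraries with the same number did not deviate together (r = -0.07 over 13355 genes), so they share only a number. With the replicate number as a block, 6606 genes and 7 members were called. Reads limit Tgtp1, Iigp1 and Gm4951, with at most 7 vehicle reads each.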
